A study of Sus scrofa with 2 samples.

Results

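Immediate early genes of neuronal activity are transcribed within minutes of synaptic stimulation, before any new protein is made. Calcium entry and kinase signalling activate transcription factors that already sit at their promoters, and most of their products are themselves transcription factors that switch on a later set of genes acting at the synapse. In the hippocampus, where new memories are encoded, they are widely used as markers of recently active neurons. Here 10 such genes were followed by symbol in piglet hippocampus: FOS, FOSB and JUNB, EGR1, EGR2 and EGR3, NPAS4, NR4A1 and NR4A2, and ARC. Of these, 7 had a paired Ensembl ID among the 25322 gene IDs of the table. The IDs paired with FOSB, ARC and NR4A1 were not among them, so those 3 genes were not analysed here.

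The tissue came from wild-type piglets of the Rongchang breed, and the comparison asked how hippocampal gene expression differed between 1 iron dextran sample and 1 control sample. Iron dextran is iron bound to a polysaccharide, injected into young pigs to prevent anaemia. The sources used here do not give the dose, the time from injection to sampling, the age and sex of the animals or their handling before death, and the label of each sample lists 2 names without saying what these were. Levels are in FPKM, that is, fragments per kilobase of transcript relative to all mapped fragments of the sample, so levels of different genes can be set side by side. With 1 sample per group there was no spread between replicates, no test was made, and no difference below has a replicate check.

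The table listed 16865 IDs above 0 in iron dextran and 16727 in control, and the number of fragments sequenced is unknown. The neuronal markers were abundant, with SNAP25 at 952 FPKM in iron dextran and 1032 in control and SLC17A7, the vesicular glutamate transporter of excitatory neurons, at 611 and 658 FPKM. Each of the 18 lists of genes used below had at least 1 tested gene, and no marker of a cell type with an ID in the table was at 0 in both samples.

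The immediate early genes showed no large difference between the samples. Differences are given as log2(FPKM + 1) in iron dextran minus the same in control, a scale that understates the change of low genes. A gene counted as tested from a mean of 1 FPKM and as higher or lower from 1.5-fold, which is 0.58 on this scale. Of the 6 members that were tested, 0 were higher and 0 were lower in iron dextran by that rule. Among all 12557 genes tested, 2.47% were higher and 1.47% were lower, and a count of 0 among 6 is near those shares. Of the 6, 5 had the larger value in iron dextran and 1 in control, where 49.0% of all tested genes had the larger value in iron dextran. Their median difference was 0.19, against −0.0046 over all genes tested.

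**Figure D1:**
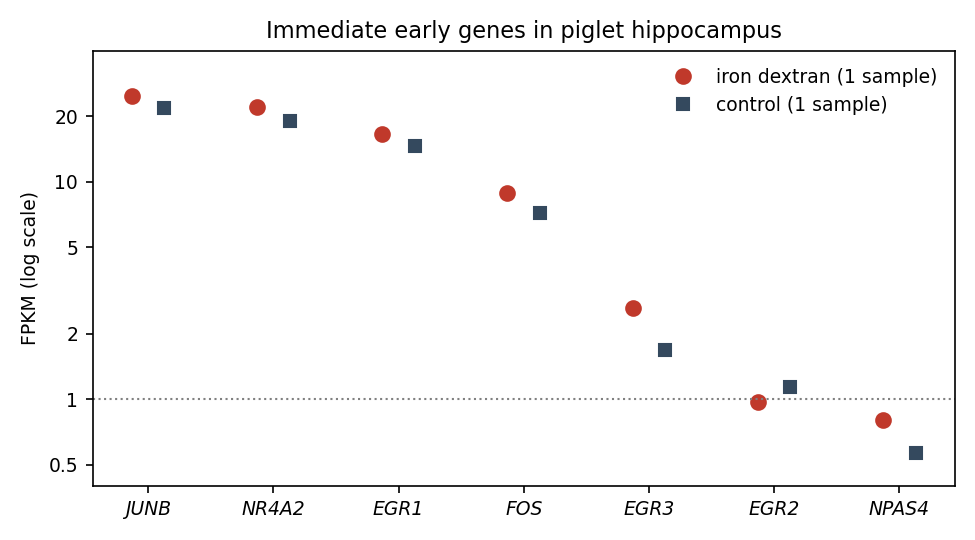
FPKM (log axis) of the 7 immediate early genes in the iron dextran sample (circles, left) and the control sample (squares, right), 1 value each, ordered by control level; the dotted line marks 1 FPKM. The order is the same in both samples, and EGR2 is the gene with the larger value in control.

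The AP-1 genes come first. AP-1 is a dimer of a FOS and a JUN protein that binds the promoters and enhancers of later genes. FOS (ENSSSCG00000002383), the most widely used marker of activated neurons, had 8.87 FPKM in iron dextran and 7.21 FPKM in control. The log2 difference was 0.27, and 12.3% of all genes tested had a more positive one. JUNB (ENSSSCG00000013735), a JUN protein that pairs with FOS, was the member with the highest level, at 24.8 FPKM in iron dextran and 21.9 FPKM in control. Its log2 difference was 0.17. Both values were the larger ones in iron dextran, and FOS stood at 0.358 of the JUNB level in iron dextran and at 0.329 in control. Such a ratio within a sample does not depend on how the columns were scaled.

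The EGR genes encode zinc finger transcription factors that bind GC-rich sites near many synaptic genes. EGR1 (ENSSSCG00000014336), which is needed for lasting memory in mice, had 16.7 FPKM in iron dextran and 14.5 FPKM in control, a log2 difference of 0.18. EGR3 (ENSSSCG00000009630), an EGR protein that neuronal activity induces and that takes part in memory in mice, had 2.62 FPKM in iron dextran and 1.68 FPKM in control. This was the member with the most positive difference, 0.43 on the log2 scale, and 4.72% of all genes tested had a more positive one. Taken as a plain ratio of FPKM it was 1.55. EGR2 (ENSSSCG00000010224), also known for its part in peripheral myelination, had 0.969 FPKM in iron dextran and 1.14 FPKM in control, a log2 difference of −0.12 and a plain ratio of 0.849. The 3 paralogs therefore did not lie on the same side of 0. Set against EGR1 in the same sample, EGR3 was at 0.157 in iron dextran and 0.116 in control, and EGR2 at 0.0582 and 0.0785.

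NPAS4 (ENSSSCG00000012942) encodes a transcription factor that responds selectively to calcium entry in neurons and shapes inhibitory synapses. It had 0.803 FPKM in iron dextran and 0.568 FPKM in control, the lowest level of the members in both samples and under the limit for tested genes. Its log2 difference was 0.20 and its plain ratio 1.41. The NR4A genes encode orphan nuclear receptors. NR4A2 (ENSSSCG00000015871), also called NURR1 and known for its role in dopamine neurons, had 22.01 FPKM in iron dextran and 19.10 FPKM in control, a log2 difference of 0.19. It was the member with the second highest level.

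The order of the levels was the same in both samples: JUNB, NR4A2, EGR1, FOS, EGR3, EGR2 and NPAS4. With 1 value per sample, whether neighbours in this order differ beyond replicate spread cannot be told. JUNB was 30.9 times the NPAS4 level in iron dextran and 38.6 times in control. Among all IDs above 0 in a sample, JUNB stood at percentile 79.8 in iron dextran and 77.5 in control, FOS at 60.8 and 57.4, and NPAS4 at 22.7 and 19.2. The members thus ran from low to fairly high levels of the transcriptome. Summed over the 7 genes, the level was 76.7 FPKM in iron dextran and 66.2 FPKM in control, a ratio of 1.16. In bulk tissue, fewer cells of a type and less RNA per cell cannot be told apart.

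Every tested member lay inside the central 95% of differences of genes at a like level. For the 2170 genes with a mean from 20 to under 50 FPKM, which include JUNB and NR4A2, that range ran from −0.36 to 0.34. For the 2177 genes from 10 to under 20 FPKM, with EGR1 among them, it ran from −0.41 to 0.47. For the 2203 genes from 5 to under 10 FPKM, with FOS among them, it ran from −0.46 to 0.57. The lower genes spread more widely, from −0.56 to 0.73 among the 2615 genes around EGR3 (from 2 to under 5 FPKM) and from −0.65 to 0.82 among the 1548 around EGR2 (from 1 to under 2 FPKM).

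**Figure D2:**
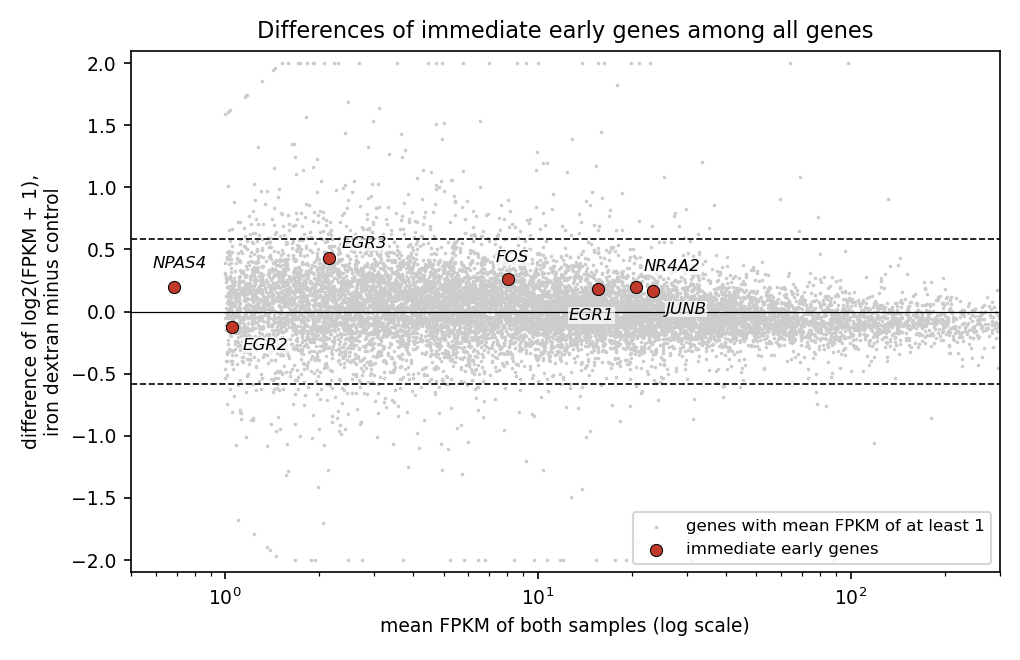
Log2(FPKM + 1) in iron dextran minus that in control, against the mean FPKM of both samples (log axis, shown up to 300 FPKM) for all genes tested (grey, values past 2 drawn at 2) and the 7 immediate early genes (red; NPAS4 is under the limit for tested genes); dashed lines mark 1.5-fold. The red points lie between the dashed lines, with EGR3 at 0.43 and EGR2 at −0.12.

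EGR3 was the member that changed its side of the 1.5-fold rule with the pseudocount. With a pseudocount of 0.1 its difference was 0.61, and with plain ratios 0.64, so that 1 of 6 tested members was higher. The same settings called 4.44% and 4.53% of all genes higher. At a looser limit, 0.32 on the log2(FPKM + 1) scale, EGR3 was again the 1 member of 6 that was higher, with 8.81% of all genes. NPAS4 reached 0.50 as a plain log2 ratio and stayed under the rule. Other pseudocounts, filters and folds cannot turn the direction of a difference. Under the settings that centred or rescaled the values, each of the 7 differences kept its direction. Their shifts were smaller than the differences, so this was no check of direction. Centring on the median of all genes (−0.0046) and TMM scaling, which put that median at −0.013, moved values little. The same column total raises every difference, so only EGR2 could turn, and it went from −0.12 to −0.06. Centring within expression bins took NPAS4 from 0.20 to 0.13. With the columns scaled to the same total, the median of all genes moved to 0.10 and that of the members to 0.30. Relative to all genes the members' median was then 0.20, against 0.19 with FPKM as deposited. That scaling also moved the share of calls that were higher to 77.5% of calls over all genes, against 62.6%, while centring differences within expression bins moved it to 53.8%.

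**Figure D3:**
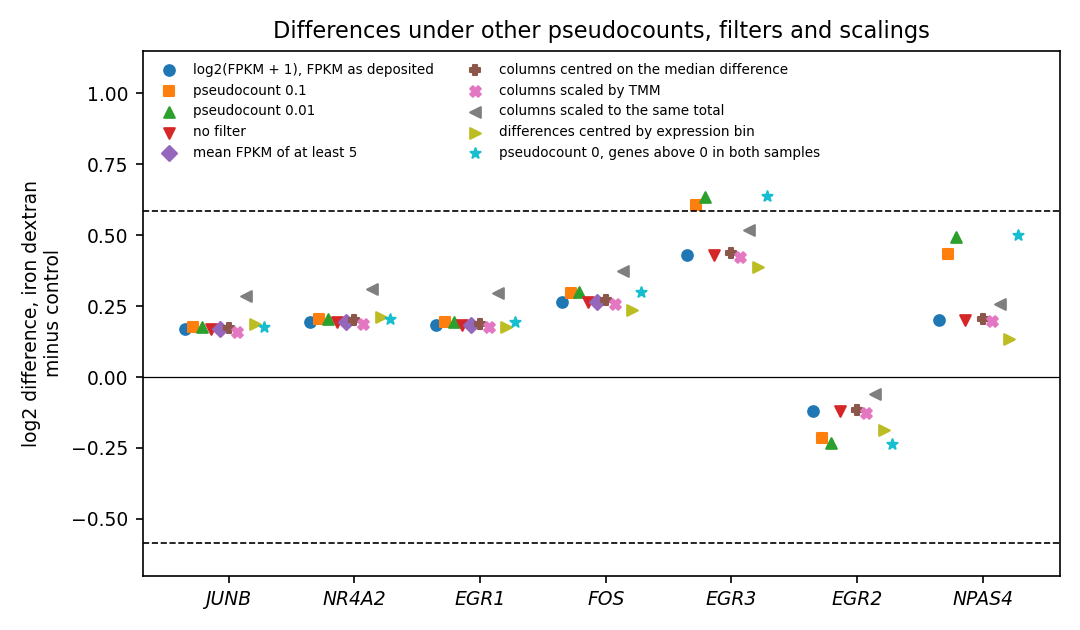
Log2 difference, iron dextran minus control, of each immediate early gene with FPKM as deposited and under other pseudocounts, filters and scalings (1 symbol per setting; dashed lines mark 1.5-fold). FOS, JUNB, EGR1 and NR4A2 stay between 0.16 and 0.37, and EGR3 passes the upper line with the pseudocounts under 1.

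Next are genes of the same families that are not members. Of 9 listed, 5 had an ID in the table and all 5 were tested, with none higher and none lower and a median difference of 0.10. Over all genes tested, 2.47% were higher and 1.47% lower. A count of 0 in a list this short, here and in the lists below, is near those shares. FOSL1, a FOS relative that pairs with JUN proteins, had 51.9 FPKM in iron dextran and 53.8 FPKM in control. NR4A3, the third NR4A receptor, had 9.24 FPKM in iron dextran and 9.11 FPKM in control. NPAS2, a relative of the circadian factor CLOCK, had 10.6 and 8.69 FPKM, NPAS3 had 1.72 and 1.21 FPKM, and NPAS1 had 8.92 and 8.27 FPKM. JUN, JUND, FOSL2 and EGR4 had no ID in the table.

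Other genes of the rapid primary response, which many cell types induce after growth factors or stress, were mixed. Of 30 listed, 20 had an ID in the table and 17 were tested, and none was higher and none lower. In all, 10 were above 0 and 7 below, with a median of 0.06. CITED2, a co-regulator of transcription, had 22.8 FPKM in iron dextran and 16.5 FPKM in control. TIPARP, a target of the aryl hydrocarbon receptor, had 2.82 and 1.97 FPKM, CCN2, a matricellular protein, had 32.7 and 26.2 FPKM, and MYC had 7.69 and 6.06 FPKM. IER5 went the other way, with 4.53 FPKM in iron dextran and 6.34 FPKM in control, a log2 difference of −0.41. ZFP36, which encodes a protein that destabilises short-lived mRNAs, was listed at 0 in both samples.

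The later effectors, which immediate early transcription factors and calcium signalling induce, lay on both sides of 0. Of 30 listed, 24 had an ID and 22 were tested, with 12 above 0 and 10 below, 1 higher, none lower and a median of 0.08. Among all genes tested, 2.47% were higher and 1.47% lower. The gene that was higher was PTGS2, the inducible prostaglandin synthase of excitatory neurons, with 2.40 FPKM in iron dextran and 1.11 FPKM in control. Its difference of 0.69 lay inside the central 95% of genes from 1 to under 2 FPKM. It was not counted at 2-fold on log2(FPKM + 1) or with the filter at 5 FPKM. As a plain log2 ratio its difference was 1.11, which is past 2-fold. PENK, an opioid peptide precursor, had 166 and 123 FPKM, and SCG2, a granin of dense core vesicles, had 97.9 and 82.3 FPKM. CORT, the peptide cortistatin, had 6.01 FPKM in iron dextran and 8.29 FPKM in control, and the protease inhibitor TIMP1 had 18.7 and 23.8 FPKM. BDNF, the neurotrophin, had 13.7 FPKM in iron dextran and 12.7 in control, and HOMER1, a scaffold of the postsynapse, had 11.48 and 11.53; both were chosen after their values were seen.

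Upstream of the members, the receptors, kinases and factors that switch them on gave a median of 0.02. Of 30 listed, 21 had an ID and 19 were tested, with 11 above 0 and 8 below, 2 higher and none lower. The shares over all genes tested were 2.47% higher and 1.47% lower. CAMK2A, a calcium-dependent kinase of the synapse, had 3.93 FPKM in iron dextran and 1.995 FPKM in control. Its difference of 0.72 lay inside the central 95% of genes from 2 to under 5 FPKM, and it too was not counted at 2-fold or with the filter at 5 FPKM. NTRK2, the receptor of BDNF, had 35.2 and 21.4 FPKM, and its difference of 0.69 lay above the range given for genes from 20 to under 50 FPKM; it was not counted at 2-fold. PPP3CA, the catalytic subunit of calcineurin, had 43.0 and 31.1 FPKM, and CRTC2, a coactivator of CREB, had 9.89 and 7.74 FPKM. CAMKK2 had 79.5 FPKM in iron dextran and 92.8 FPKM in control. SRF, the factor that binds the serum response elements of FOS and EGR1 and was listed among the rapid response genes, had 18.8 and 17.1 FPKM.

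Partners and negative regulators of the members had a median of 0.01, whose sign turned under some settings, with 8 of 17 listed genes tested and none higher or lower. NAB1, a corepressor of EGR proteins, had 13.3 FPKM in iron dextran and 11.5 FPKM in control, while NAB2, its relative, was listed at 0 in both samples. ARNT, a partner with which proteins of the NPAS4 type form dimers, had 4.597 and 3.192 FPKM. The list for ARC binding and the uptake of AMPA receptors also holds receptor subunits, DLG4 and STX4. It had a median of −0.07 (0.05 with the same column total), with 10 of 11 listed genes tested. With FPKM as deposited, 4 were above 0 and 6 below, and none was higher or lower. Among them GRIA2, an AMPA receptor subunit, had 21.6 FPKM in iron dextran and 14.6 FPKM in control and was higher, at 0.65, when columns had the same total, and the endophilin SH3GL3 had 78.0 and 97.9 FPKM. The heat shock genes, which respond to protein stress, had a median of 0.05 with 7 of 10 tested, none higher and none lower. Of these 7, 5 were above 0 and 2 below, with sums of 1904 FPKM in iron dextran and 2077 FPKM in control. DNAJB1 had 26.8 FPKM in iron dextran and 20.9 FPKM in control, and HSP90AA1 had 1231 and 1420 FPKM.

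**Figure D4:**
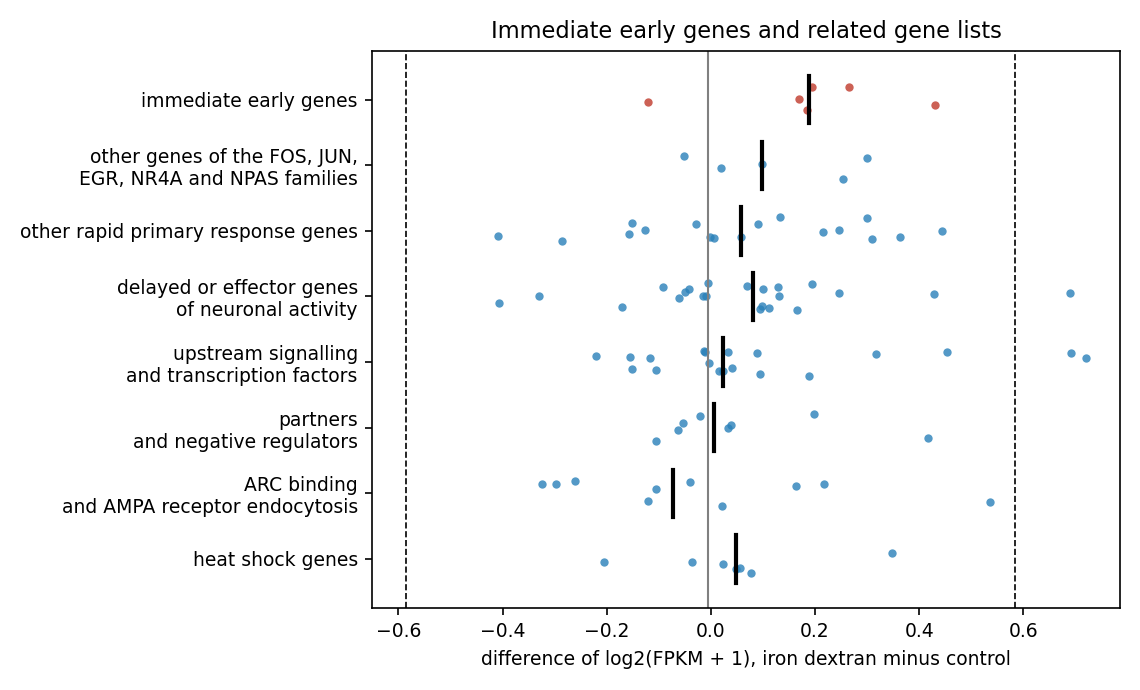
Log2(FPKM + 1) in iron dextran minus that in control, of each tested gene in the immediate early genes (red, 6 genes) and in 7 related lists (blue); black bars are medians, the grey line is the median of all genes tested and dashed lines mark 1.5-fold. The genes past the upper line are PTGS2, CAMK2A and NTRK2, and no gene of these lists is past the lower one.

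The cell type markers beside these values were as follows. Neuronal markers summed to 3356 FPKM in iron dextran and 3506 FPKM in control over 7 genes, with a median difference of −0.03 (0.09 where columns had the same total, 0.08 where differences were centred within expression bins). Markers of inhibitory neurons summed to 256.71 FPKM in both samples over 5 genes, but did not all lie on one side: 4 were above 0 and 1 below, with a median of 0.14. GAD1, which makes GABA, had 99.2 FPKM in iron dextran and 86.1 FPKM in control, and the calcium-binding protein PVALB had 84.4 and 104.9 FPKM. Of the markers of dentate granule cells, 3 of 6 were tested, with a median of 0.48 and none past 1.5-fold. That median was 0.21 with the filter at 5 FPKM and 0.02 over all 6 without a filter. C1QL3 had 16.5 FPKM in iron dextran and 11.5 FPKM in control and was higher when columns had the same total. CALB1 had 1.56 FPKM in iron dextran and 0.802 FPKM in control and was higher with the pseudocounts under 1. C1QL2 had 10.3 and 10.9 FPKM, and under the limit for tested genes PROX1 had 0.858 and 0.761 FPKM, SEMA5A 0.948 and 0.993 FPKM, and DSP 0.241 and 0.546 FPKM. Markers of CA1 pyramidal cells had a median of −0.03 over 3 genes, which turned above 0 under some settings, and those of CA3 and CA2 cells one of −0.23 over 4. Whether the makeup of the dissected tissue had a part in the members' values was not tested.

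Among other cell types, microglial markers summed to 95.5 FPKM in iron dextran and 70.6 FPKM in control over 5 of 8 genes. Their median was 0.41, all 5 were above 0, and 1 gene, P2RY12, was higher. Blood markers summed to 519 FPKM in iron dextran and 189 FPKM in control over 4 of 5 genes, and all 3 tested were higher. These were HBB, HBM and ALAS2, with log2 differences of 1.46, 1.003 and 0.66. Astrocyte markers had a median of 0.27 over 5 genes, 3 above 0 and 2 below, with sums of 1530 and 1594 FPKM. Oligodendrocyte markers had a median of −0.21 over 5 genes, 1 above 0 and 4 below, with sums of 7629 and 8724 FPKM. Endothelial markers had a median of −0.17 over 3 genes, 1 above 0 and 2 below, with sums of 19.99 and 22.20 FPKM. When columns had the same total, the oligodendrocyte and endothelial medians were −0.0851 and −0.0561, and centring within expression bins put the oligodendrocyte median at −0.10. Of the choroid plexus markers 1 was tested, with a difference of 0.27, and their sums were 24.50 and 20.02 FPKM. Microglia, endothelium and blood cells can also express FOS, JUNB and EGR1, and their part in the members' values was not tested.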

How the data were processed

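The values are FPKM, deposited by the authors in 1 table with a column for each sample; the letter that heads a column is the one in that sample's title. The submitters' processing notes name cutadapt 1.2.1, TopHat and the builds Sscrofa10.2 and susScr3; the sources used here give neither the program that made the FPKM values nor the annotation. Symbols came from a table of Ensembl IDs and names, which matched 11804 IDs. No coordinates or sequences are given, and a planned search for promoter motifs was not run.

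Computed here (Python 3.11.15, pandas 2.3.3, numpy 2.4.6) were differences of log2(FPKM + 1), with a mean FPKM of at least 1 for tested genes. Alternatives were other pseudocounts, filters and folds, and columns centred, scaled to the same total or rescaled with TMM (trimmed mean of log ratios). The code was tested on simulated data. Named are all members, any list gene past 1.5-fold on log2(FPKM + 1), and all markers of dentate granule cells. Of the up to 5 genes per list with the largest absolute difference, not all are named, and from some marker lists none. SRF, ZFP36, NAB2 and the neuronal markers named for their level were picked with their values known. The members, the 7 pathway lists and the 11 marker lists were chosen with earlier results of these data known. Of 690 genes with control FPKM under 0.1 and above 0 in both samples, 195, 125 and 45 had iron dextran to control ratios at 1, 2 and 0.5 times 0.947 (tolerance 0.05 log2 units). Read as whole fragments this is a relative depth of 1.06; absolute depth is unknown.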

Additional observations from a re-analysis of the deposited data

How the results depend on the processing

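No paired analysis was possible because each group had 1 sample. All 7 members kept the direction of their difference under each centring and scaling. The shifts of those settings were smaller than the differences, so this was no check of direction. Other pseudocounts and filters cannot turn a direction at all. Plain ratios of genes above 0 in both samples were added after seeing the data. No member was lower under any setting. The count of members higher was 1, EGR3, with pseudocounts of 0.1, 0.01 and 0 and at the looser fold limit (0.32 on the log2 scale), and 0 otherwise; at 0.01 EGR3 had 0.63. The members' median was 0.30 when columns had the same total; otherwise it was between 0.18 and 0.20. For all genes, the counts higher and lower were 558 and 332 with a pseudocount of 0.1, 599 and 357 with 0.01, 566 and 334 with plain ratios, 113 and 71 when genes needed a mean of 5 FPKM, 93 and 53 at 2-fold, and 1106 and 748 at the looser limit. Without a filter 282 genes were lower. Centring by expression bin gave 265 and 228. Among list medians, that of partners and negative regulators turned to −0.0214 without a filter, −0.0373 when the mean had to reach 5 FPKM and −0.0035 with TMM scaling. With the same column total the lists of ARC binding (0.0456), neurons (0.0945) and CA1 (0.0826) turned above 0, as did neurons (0.0771) and CA1 (0.0068) after centring by expression bin and CA1 (0.17) with the filter at 5 FPKM. The same column total moved every list median up by 0.0948 to 0.12; among medians that stayed below 0, that of CA3 and CA2 became −0.12. List calls changed too: 0 effectors and 1 upstream gene were higher with the filter at 5 FPKM, and 0 and 0 at 2-fold on log2(FPKM + 1). The cause was not tested, beyond the common shift that the same total gives to all genes. Low genes such as NPAS4 and EGR2 rest on fewer fragments than JUNB, and how many is unknown.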

Other observations

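FOSL1 had the highest level of the FOS, JUN, EGR, NR4A and NPAS genes with an ID in the table, at 51.9 FPKM in iron dextran and 53.8 FPKM in control, above JUNB at 24.8 and 21.9 FPKM. Which sequence the older build assigns to this ID was not checked. ATF3, a stress-induced partner of JUN proteins, had 0.945 FPKM in iron dextran and 1.16 FPKM in control, and the kinase phosphatase DUSP1, which ends signalling to these genes, had 22.5 and 21.5 FPKM. These genes were chosen after their values were seen.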
